A study of Homo sapiens with 4 samples.

Results

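LINC symbols are the systematic names given to long intergenic non-coding RNAs, transcripts that do not code for a long protein and that were annotated away from known genes. They are usually transcribed by RNA polymerase II and spliced like mRNAs. Some act on chromatin or on neighbouring genes, some bind proteins or small RNAs, and some turned out to hold short reading frames. Many are made in few cell types and at low levels, and for most of them no function is established.

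The members described here are the lncRNA symbols made of LINC and digits whose FPKM, summed over their transcripts, reached 1 in any library. FPKM are fragments per kilobase of transcript, scaled to the mapped fragments of each library. The rule kept 116 of 160 LINC symbols, out of 3214 lncRNA symbols in the table, and the 116 members have 267 transcripts. The other 44 LINC symbols stayed under 1 FPKM in every library. All 160 reached 0.5 FPKM in at least 1 library, so weaker LINC RNAs may be missing from the deposited values. The 116 of 160 is therefore a share of listed symbols, not a rate of detection. Since the rule reads the same FPKM that are described below, the levels and ratios are descriptions and no test was made of them.

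RNA came from hFOB1.19, a human fetal osteoblast line immortalised with a temperature-sensitive large T antigen, which divides at the permissive temperature and differentiates at the restrictive one. The day 0 library is the control, taken before induction, and the libraries of days 3, 6 and 9 come from cells undergoing mineralization. All 4 libraries share the line and the T antigen gene, which the control carries too. Between day 0 and the later days, time in culture, temperature and T antigen activity change together and cannot be told apart. There is 1 library per time point, and no value below has a replicate, an error between cultures or a p-value. The number of reads behind a gene is not known from FPKM, and the precision of each value is therefore unknown. RNase R, which digests linear RNA, is described for the mRNA libraries, and whether the lncRNA values come from RNA treated in this way is not clear. Of 10 osteoblast markers, 7 reached 1 FPKM in any library: RUNX2, the master transcription factor of the lineage, stood at 7.37, 26.2, 19.3 and 18.2 FPKM on days 0, 3, 6 and 9. SP7, IBSP and BGLAP stayed under 1 FPKM throughout. Between days 0 and 9, ALPL went from 0.294 to 4.18 FPKM and SPP1 from 0.794 to 7.45. COL1A1, COL1A2 and SPARC were also higher on day 9, while DLX5 went from 1.72 to 1.34 FPKM. Of the markers of other cells, 2 of 5 for chondrocytes, 0 of 5 for adipocytes, 1 of 5 for haematopoietic cells and 1 of 5 for epithelium and endothelium reached 1 FPKM. Between days 0 and 9, the chondrocyte markers SOX9 and MATN3 went from 1.21 to 5.32 and from 16.9 to 8.33 FPKM, and the haematopoietic marker CD14 from 1.07 to 0.428. KRT8 was the highest marker of other cells and went from 517 FPKM on day 0 to 189 on day 9, while EPCAM and CDH1 stayed under 1 FPKM. In bulk RNA, fewer cells of a kind and less RNA per cell cannot be told apart.

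The word intergenic holds for most members, not for all. The files class 95 members as lincRNA, 11 as antisense, 9 as processed transcript and 1 as sense overlapping. In RefSeq (GRCh38.p14) all 116 found a match, 93 by symbol, 18 by gene ID and 5 by synonym, and 114 could be placed on 22 chromosomes. Of those 114, 22 overlapped a protein-coding gene. RefSeq lists 5 members under protein-coding genes: LINC00998 as SMIM30, LINC00094 as BRD3OS, LINC01125 as C2orf92, and LINC00444 and LINC01336 only as synonyms of SUCLA2 and GCNT4, so these last have no place of their own. Another symbol is now used for 23 members. Among them LINC00152 is CYTOR, LINC01021 is PURPL, LINC01578 is CHASERR and LINC00704 is MANCR. The library kit keeps strand, but whether counting used strand is not stated, so reads of a member and of a gene it overlaps may not be told apart.

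Most members were scarce. Their median level was 1.43, 2.51, 2.16 and 2.09 FPKM on days 0, 3, 6 and 9. The highest level of a member in any library was under 2 FPKM for 35 members, from 2 to under 5 for 37, from 5 to under 10 for 23, from 10 to under 20 for 14, and 20 or more for 7. On day 0, 77 members reached 1 FPKM, against 96, 97 and 96 on days 3, 6 and 9. All 4 libraries passed the minimum for 62 members, 3 libraries for 26, 2 libraries for 12 and a single library for 16. At the edge of the rule, LINC00310 (highest level 1.01 FPKM), LINC01176 (1.03) and LINC01556 (1.04) lay just inside, and LINC01270 (0.992), LINC00839 (0.996) and LINC01372 (0.997) just outside.

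One RNA held much of the signal. LINC00152, or CYTOR, a cytoplasmic RNA known for promoting proliferation and cytoskeletal organisation, stood at 196, 243, 232 and 251 FPKM on days 0, 3, 6 and 9. This was between 29.0% and 31.9% of the summed FPKM of all members in each library. Its log2 ratio to day 0 on day 9 was 0.35, within the 2-fold limit. A near-identical copy elsewhere on chromosome 2, MIR4435-2HG, was listed at 176, 204, 202 and 228 FPKM, and reads of these copies may have been split by the authors' counting, so the level of either is uncertain. Within LINC00152, the transcript ENST00000331944.10 went from 104 FPKM on day 0 to 195 on day 9, or from 53.2% to 77.9% of the symbol's FPKM. The next transcript, ENST00000409054.1, went from 54.3 to 30.6 FPKM, or from 27.7% to 12.2%. Thus the sum moved less than its main transcript. Of 69 members with several transcripts and signal on both days, 52 had the same leading transcript on days 0 and 9 and 17 had another.

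Members that were abundant on day 0 stayed within the limit or fell. LINC00998, which encodes the small endoplasmic reticulum membrane protein SMIM30, stood at 41.4, 38.3, 34.0 and 35.8 FPKM. LINC01578, or CHASERR, is transcribed next to CHD2 and is known to restrain that chromatin remodeler. Its level was 32.3, 26.3, 24.4 and 19.9 FPKM, lower at every step, with a log2 ratio of -0.67 on day 9. CHD2 itself was listed at 69.7, 73.5, 68.4 and 63.0 FPKM. LINC01184, the divergent transcript of the chloride cotransporter gene SLC12A2, showed 26.3, 19.4, 19.1 and 15.4 FPKM. LINC00969, whose locus holds the only miRNA gene found inside a member, MIR570, showed 23.9, 26.6, 22.4 and 17.8 FPKM. None of these passed the limit. Of the 12 members at 10 FPKM or more on day 0, 10 had a lower value on day 9, 1 passed the limit downward and 0 upward. The share for all lncRNA symbols at that level was not computed. These members were picked by the day 0 value that also enters the ratio, so the counts describe them only. Among members above 5 FPKM in every library, the smallest spread over the 4 libraries belonged to LINC01116, at 13.3, 12.7, 13.0 and 13.9 FPKM, followed by LINC00998, LINC01002 (11.7, 10.2, 9.58 and 9.42), LINC00152 and LINC01278 (6.68, 9.01, 8.43 and 7.35) among the 5 steadiest.

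A change was counted when log2 of the ratio to day 0, with 1 added to each FPKM, reached 1 or -1. On this scale the change of a scarce RNA is understated, and a member under 1 FPKM on day 0 cannot be called lower. That left 77 members that could be called lower. On day 3, 18 members were higher (15.5%) and 4 lower (3.45%), beside 14.3% higher and 5.35% lower of all 2357 lncRNA symbols with 1 FPKM or more in any library. On day 6, 27 were higher (23.3%) and 4 lower (3.45%), beside 15.5% and 5.81%. On day 9, 30 were higher (25.9%) and 8 lower (6.90%), beside 13.4% and 6.79%, and of 12859 mRNA symbols 9.60% were higher and 6.52% lower. On all 3 later days, 12 members were higher (10.3%) and 1 lower (0.862%), beside 6.53% and 2.42%. The share of higher members was thus near that of all lncRNAs on day 3 and larger on days 6 and 9, while the share of lower members was near it or under it. The likeness on day 3 depends on the amount added: with 0.1 in place of 1, 36.2% of members and 27.9% of all lncRNA symbols were higher on day 3, and 34.5% and 24% on day 9. The difference between the shares was not tested. When each later library was rescaled so that the median lncRNA did not move, 12 members were higher and 7 lower on day 3, beside 8.87% and 7.76% of all lncRNA symbols, 19 and 9 on day 6, beside 10.1% and 8.02%, and 29 and 8 on day 9, beside 12.6% and 6.96%.

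**Figure D1:**
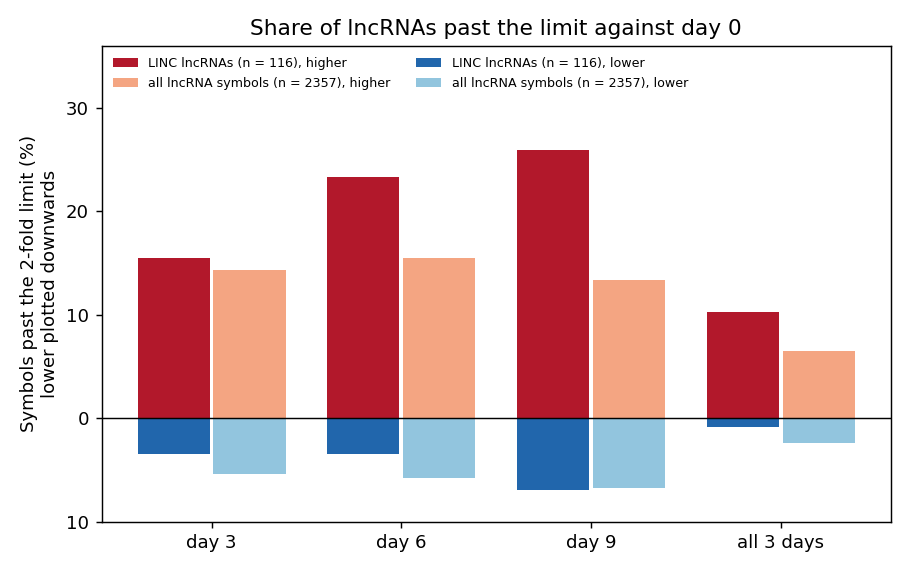
Share of LINC lncRNAs (n = 116, dark bars) and of all expressed lncRNA symbols (n = 2357, light bars) past the 2-fold limit against day 0, in percent, with higher symbols upward and lower symbols downward. On day 9 the upward bar of the LINC lncRNAs reaches 25.9% and that of all lncRNAs 13.4%, while the downward bars are 6.90% and 6.79%.

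Over the 3 days, 35 members (30.2%) were higher on at least 1 day and 11 (9.48%) lower, beside 24.1% and 10.2% of all expressed lncRNA symbols. No member was both, and 70 were neither. The median log2 ratio of the members was 0.30, 0.27 and 0.11 on days 3, 6 and 9. Over all expressed lncRNA symbols it was 0.21, 0.21 and 0.03, and over mRNA symbols -0.08, -0.08 and -0.09. The middle of the members therefore lay within 0.1 of that of all lncRNAs on each day. Of the 30 members higher on day 9, 21 were under 1 FPKM on day 0 and so belonged to the group only through a later library. Among members under 1 FPKM on day 0, 53.8% were higher on day 9, beside 26.9% of all such lncRNA symbols. Among the 77 members with 1 FPKM or more on day 0, 9 were higher (11.7%) and 10.4% lower, beside 6.90% and 10% of all such lncRNA symbols.

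**Figure D2:**
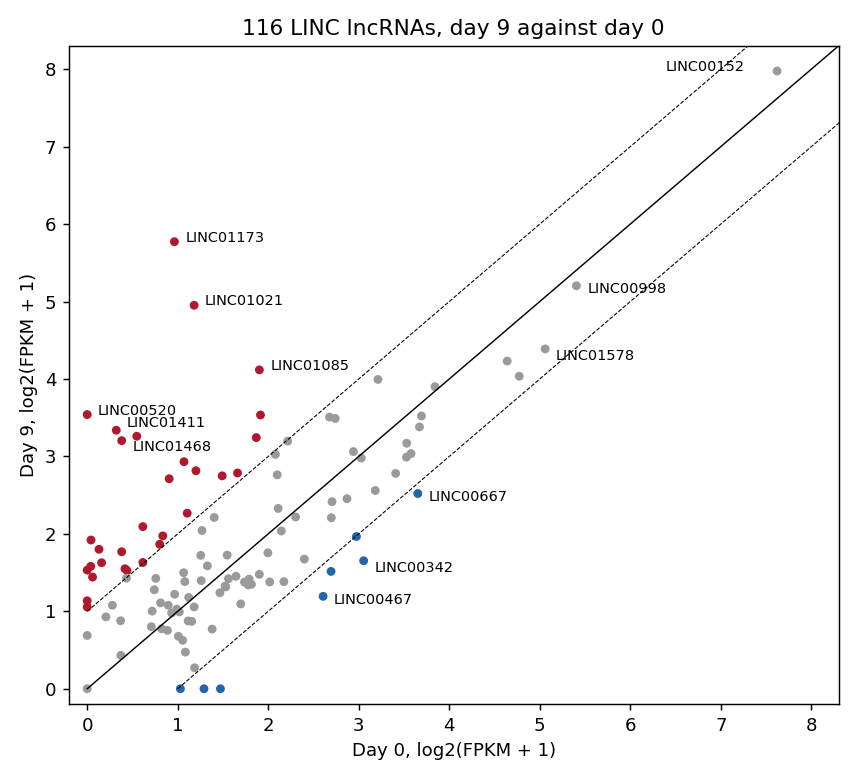
Level of each of the 116 LINC lncRNAs on day 9 against day 0, both as log2(FPKM + 1), 1 point per symbol. The solid line marks equal levels and the dashed lines the 2-fold limit; the 30 red points above it include LINC01173 and LINC01021, the 8 blue points lie below it, and the abundant LINC00152, LINC00998 and LINC01578 lie between the lines.

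The largest rise was that of LINC01173. It was listed at 0.950 FPKM on day 0 and at 35.3, 44.9 and 53.7 FPKM on days 3, 6 and 9, with log2 ratios of 4.22, 4.56 and 4.81. From just under 1 FPKM it became the second most abundant member on day 9, and it went up at every step.

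LINC01021, or PURPL, is known as a direct target of p53 that lowers p53 levels. Its level was 1.27, 50.05, 40.1 and 29.9 FPKM in the order of the days, so that the peak came first and the level then went down without returning to that of day 0. The log2 ratios were 4.49, 4.18 and 3.77. The transcript ENST00000512067.5 held between 63.7% and 71.0% of its FPKM in each library.

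The RefSeq promoter window of PURPL, 250 bases before to 50 bases after the first listed start site (GRCh38.p14, chr5:27472042-27472341, plus strand), is shown because it holds a match to the p53 consensus, both of its repeats with no gap, marked by the capitals.

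LINC01021 (PURPL): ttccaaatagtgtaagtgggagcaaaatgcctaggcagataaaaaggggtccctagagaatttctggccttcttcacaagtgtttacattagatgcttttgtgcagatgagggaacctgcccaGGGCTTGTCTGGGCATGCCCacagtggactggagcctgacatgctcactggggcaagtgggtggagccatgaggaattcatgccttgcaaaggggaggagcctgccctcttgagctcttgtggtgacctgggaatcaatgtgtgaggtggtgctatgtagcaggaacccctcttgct

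The match runs from position -127 to -108 relative to the start site. Among first-listed windows of 27305 genes, 5 held such a match (0.0183%), and PURPL was the only one among the 88 members with a window. This motif was searched after the sequence had been seen, and the match is a description of letters, not a measured site.

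4 more members made up the 6 largest rises that passed the limit on all 3 days. LINC01085 stood at 2.74, 19.2, 18.4 and 16.4 FPKM, with a log2 ratio of 2.22 on day 9. LINC01411 stood at 0.249, 11.1, 12.9 and 9.11 FPKM, with a log2 ratio of 3.02. Both were high from day 3 onward and changed little among the later days.

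LINC01468, or LNCAROD, named as an activating regulator of DKK1, rose at each step, from 0.302 to 2.63, 5.52 and 8.21 FPKM, with a log2 ratio of 2.82 on day 9. DKK1, its nearest coding gene and a secreted Wnt inhibitor, was listed at 40.7, 91.2, 59.0 and 61.5 FPKM, a log2 ratio of 0.58 on day 9. Thus the lncRNA was highest on day 9 and DKK1 on day 3. LINC00704, or MANCR, known as a mitosis-associated RNA, stood at 0.0296, 2.07, 3.31 and 2.79 FPKM.

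Of the 12 members higher on all 3 days, 5 peaked on day 3, 3 on day 6 and 4 in the last library. Another 18 were higher on day 9 but not on every later day. Steady ascent was more frequent among members than among all lncRNAs in this series: 20 members (17.2%) increased at every step, beside 7.17% of all expressed lncRNA symbols, and 12 (10.3%) decreased at every step, beside 8.10%. Of the 30 members higher on day 9, 13 increased at every step. These 30 were picked by a high day 9 value, which itself favours such a course. The share among all lncRNA symbols higher on day 9 was not computed. Of all members, 34 had their highest level on day 0, and 30, 23 and 29 had it on days 3, 6 and 9. The last number is 25% of members, beside 16.4% of all lncRNA symbols.

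The late rises are illustrated by members chosen after their values were seen. LINC00520 was listed at 0 on day 0 and at 0.367, 3.55 and 10.6 FPKM on days 3, 6 and 9. LINC00973 stood at 0.462, 1.83, 4.77 and 8.58 FPKM, and LINC00670 at 2.77, 5.19, 9.96 and 10.6 FPKM. LINC00882 went from 1.10 to 6.63 FPKM and LINC01588 from 0.873 to 5.55 FPKM, again with each library above the one before. From day 3 to day 9, 7 members (6.03%) were 2-fold higher and 3 (2.59%) 2-fold lower, beside 4.37% and 5.81% of all lncRNA symbols.

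**Figure D3:**
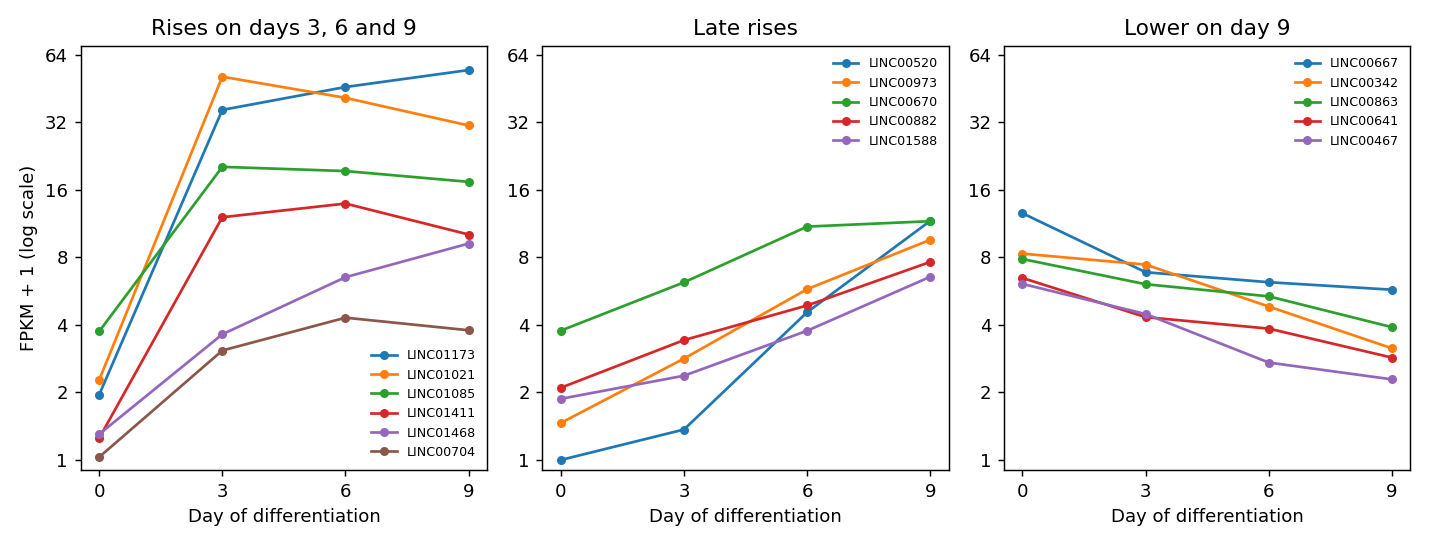
FPKM + 1 on a log scale by day of differentiation, 1 library per day, for the 6 largest rises past the limit on all 3 later days (left), 5 late rises (middle) and 5 members lower on day 9 (right). LINC01021 peaks at 50.05 FPKM on day 3, LINC01173 climbs to 53.7 FPKM on day 9, and LINC00520 starts from 0.

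Among the 77 members that could be called either way, 9 were higher and 8 lower on day 9. The 8 lower members stood between 1.04 and 11.6 FPKM on day 0, and 5 of them decreased at every step, a course that their pick by a low day 9 value itself favours. LINC00667, chosen after its values were seen, showed 11.6, 5.86, 5.196 and 4.74 FPKM. LINC00467, whose locus is reported to encode a mitochondrial micropeptide, fell from 5.09 to 3.47, 1.72 and 1.29 FPKM, a log2 ratio of -1.41 on day 9. LINC00342, LINC00641 and LINC00863, named only to complete the 8, were the other members lower on day 9 with signal in every library. They went from 7.31 to 2.14, from 5.47 to 1.86 and from 6.86 to 2.91 FPKM. The last 3, LINC01355, LINC00618 and LINC01556, were listed at 0 on day 9, so that their ratio rests on the amount added: it lay between -1.47 and -1.03 with 1 added and between -4.23 and -3.51 with 0.1 added. The only member lower on all 3 later days, LINC01556, was listed at 1.04 FPKM on day 0 and at 0 afterwards, so that call rests on a level at the edge of the rule.

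The members with the largest excess of days 3 and 6 over days 0 and 9 were LINC00444, LINC00894 and LINC01336. LINC00894, the divergent transcript of EOLA2, was listed at 0.953, 3.53, 4.14 and 1.33 FPKM. LINC01336 was listed at 0.294, 1.42, 1.38 and 0.348 FPKM, within the limit on each day. LINC00444 was listed at 9.82 FPKM on day 3 and at 0 in the other libraries. Such a single reading has no replicate, and 11 members were listed at 0 in at least 1 library.

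Lists of LINC genes by reported role place few of these changes. Of 10 micropeptide loci, LINC00998 and LINC00467 were members, and 0 were higher and 1 lower on any day. Of that list 3 more, LINC00116, LINC00493 and LINC01420, were found in the mRNA table, at 49.1, 59.0 and 24.01 FPKM on day 0 and 76.7, 49.1 and 23.8 FPKM on day 9. Of 10 genes tied to proliferation, genome stability or p53, 8 were members, and 2 were higher on any day and 0 lower, a share near the 30.2% of all members and 24.1% of all lncRNA symbols. The ones that rose were LINC01021 and LINC00460, the latter at 0.302, 1.73, 1.10 and 2.41 FPKM. LINC00662 went from 6.31 to 4.48 FPKM between days 0 and 9, LINC00511 from 1.17 to 1.26, LINC00346 from 1.17 to 0.835 and LINC00665 from 0.754 to 1.16, all within the limit. Of 6 genes tied to osteogenic differentiation, 3 were members and 2 were higher on any day, beside the same 24.1% of all lncRNA symbols, and from 3 members nothing is read about the list. LINC01119 stood at 1.15, 2.98, 4.75 and 3.81 FPKM, and LINC01535 at 1.81, 4.01, 1.48 and 5.72 FPKM, with no steady course. LINC00707 stood at 0.860, 1.96, 1.598 and 1.11 FPKM, within the limit. None of 5 hosts of small or circular RNAs was a member, and of that list LINC00632, the host of the circular RNA CDR1as, was in the table at 0.232 to 0.755 FPKM. None of 5 genes tied to inflammatory signalling was a member.

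Promoter letters were compared for the 88 members with a RefSeq window of 300 bases. 23 of these members were higher on day 9, 59 within the limit and 6 lower. CpG observed over expected, which is high in CpG islands and low in other DNA, had a median of 0.24 in the windows of higher members, 0.77 in those within the limit, 0.49 in the lower ones and 0.58 in all 27305 windows. Under a ratio of 0.4, a limit set after the values were seen, were 16 of the 23 (69.6%), 17 of the 59 (28.8%), 3 of the 6 and 41.0% of all windows. With or without a window, 21 of the 30 members higher on day 9 were under 1 FPKM on day 0, beside 39 of all 116 members. The higher members were thus more often scarce on day 0. The part of that level in these contrasts of promoter letters was not tested.

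**Figure D4:**
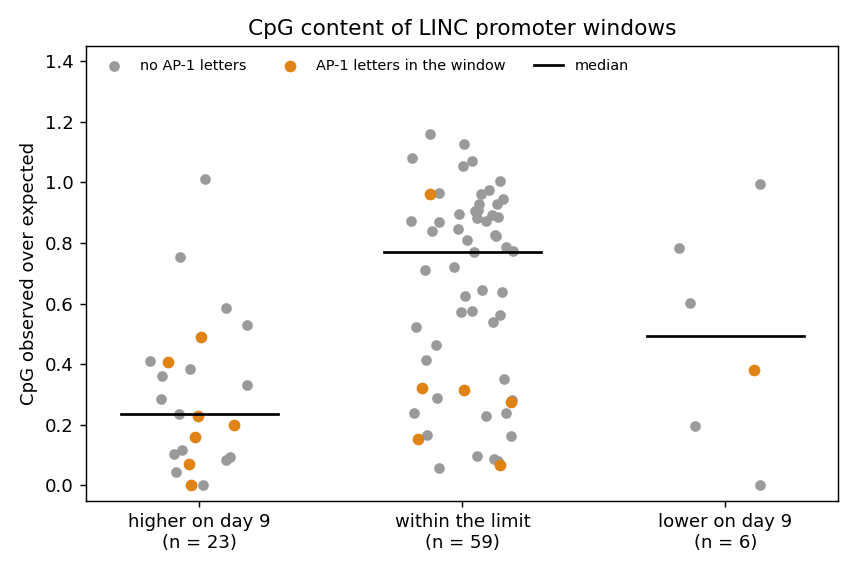
CpG observed over expected in the 300-base promoter window of each of 88 LINC lncRNAs, grouped by the day 9 ratio, with 1 point per symbol, spread sideways at random, and a line at the median. Medians are 0.24 for the 23 higher members, 0.77 for the 59 within the limit and 0.49 for the 6 lower ones; orange points hold AP-1 letters.

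The letters TGACTCA on either strand, the site of the AP-1 factors FOS and JUN, were found in 7 of the 23 windows of higher members (30.4%), 6 of the 59 within the limit (10.2%), 1 of the 6 lower ones and 4.92% of all windows. CpG content moved with this count. Among windows under the CpG ratio of 0.4, AP-1 letters stood in 5 of 16 higher members (31.2%), 5 of 17 within the limit (29.4%) and 8.34% of all, so higher members and those within the limit had like shares there. At a ratio of 0.4 or more they did not: the letters stood in 2 of 7 higher members (28.6%), 1 of 42 within the limit (2.38%) and 2.54% of all. Of the 2, LINC01411 had a ratio of 0.406, just above a limit set after the values were seen, so this contrast rests on few windows. The part of CpG content in the AP-1 shares was not tested. Counting any start site listed for a gene in place of the first, the shares were 39.1% of higher members, 10.2% of those within the limit and 6.05% of all. These are shares of letters, with no measure of binding in the data.

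5 of the 7 matching windows of higher members are shown with 24 bases on each side of the matches (RefSeq, GRCh38.p14), to let the matches be compared. Capitals mark the AP-1 letters. LINC01173 lies at chr2:234682541-234682595 (plus strand), LINC01411 at chr5:174336156-174336210 (plus), LINC00704 at chr10:4678166-4678220 (minus), LINC01615 at chr6:169163089-169163232 (minus) and LINC00460 at chr13:106376496-106376577 (plus).
LINC01173: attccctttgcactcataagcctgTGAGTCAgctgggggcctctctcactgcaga
LINC01411: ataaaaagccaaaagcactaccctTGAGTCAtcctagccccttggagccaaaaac
LINC00704: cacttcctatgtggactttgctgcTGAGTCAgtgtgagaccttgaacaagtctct
LINC01615: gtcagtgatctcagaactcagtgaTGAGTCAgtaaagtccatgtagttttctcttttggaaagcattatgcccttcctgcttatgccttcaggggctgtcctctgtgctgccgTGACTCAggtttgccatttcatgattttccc
LINC00460: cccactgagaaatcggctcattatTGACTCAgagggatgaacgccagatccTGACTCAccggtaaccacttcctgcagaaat

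The matches end 97 bases before the start site in LINC01173, and LINC01615 and LINC00460 hold 2 matches each. AP-1 letters stood in 15.9% of the 88 members, and shares of the other motifs lay closer to those of all windows. The heat shock element (GAANNTTC or TTCNNGAA) was in 12.5% of members and 13.7% of all windows, the CCAAT box (CCAAT) in 42.0% and 35.7%, the TATA box (TATAAA) in 10.2% and 12.0%, the cyclic AMP element (TGACGTCA) in 2.27% and 1.98%, and E2F letters (TTTCGCGC, TTTGGCGC or TTTCCCGC) in 3.41% and 2.79%, each on both strands. AP-1 was not alone in differing by direction: the TATA box stood in 17.4% of higher members and 6.78% of those within the limit. In the same order, the shares were 13.0% and 13.6% for the heat shock element and 39.1% and 40.7% for the CCAAT box. For the cyclic AMP element they were 0% and 3.39%, and for E2F letters 0% and 5.08%.

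Each placed member was set beside the nearest protein-coding gene of the mRNA table. In 94 pairs, with 92 different neighbours, the neighbour reached 1 FPKM in any library. Where the LINC member was higher on day 9 (27 pairs), the neighbour was higher in 7 (25.9%) and lower in 0. Of all 12859 mRNA symbols with 1 FPKM or more in any library, 9.60% were higher and 6.52% lower on day 9. Where it was within the limit (60 pairs), the neighbour was higher in 5 (8.33%) and lower in 6. Where it was lower (7 pairs), the neighbour was lower in 1 and higher in 0, and that pair, named after its values were seen, is LINC01355 with HNRNPR, the gene of an RNA-binding protein. Over the 94 pairs the log2 ratios on day 9 had a Spearman's rho of 0.41 and a Pearson's r of 0.38, and over the 84 pairs that do not overlap rho was 0.39. Both genes of a pair come from the same libraries, so these are descriptions across genes.

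Of the 7 pairs that were higher together, 6 are described here, and those other than that of LINC01411 were singled out after their values were seen. MSX2, a homeobox factor of bone and skull development beside LINC01411, stood at 1.01, 6.97, 5.38 and 5.57 FPKM. It was low on day 0 and higher in all later libraries, as was LINC01411. THBS2, a matrix glycoprotein, stood at 13.9, 80.3, 66.7 and 54.7 FPKM beside LINC01615 at 1.30, 5.09, 5.35 and 6.04. MOXD1 stood at 3.77, 21.3, 29.7 and 33.5 FPKM beside LINC01013, which was listed at 0 on day 0 and at 1.89 FPKM on day 9. DCBLD2, a membrane protein, went from 57.1 to 136 FPKM beside LINC00973, MYOCD, a coactivator of smooth muscle genes, from 3.57 to 9.11 beside LINC00670, and FGGY from 2.13 to 7.87 beside LINC01358.

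**Figure D5:**
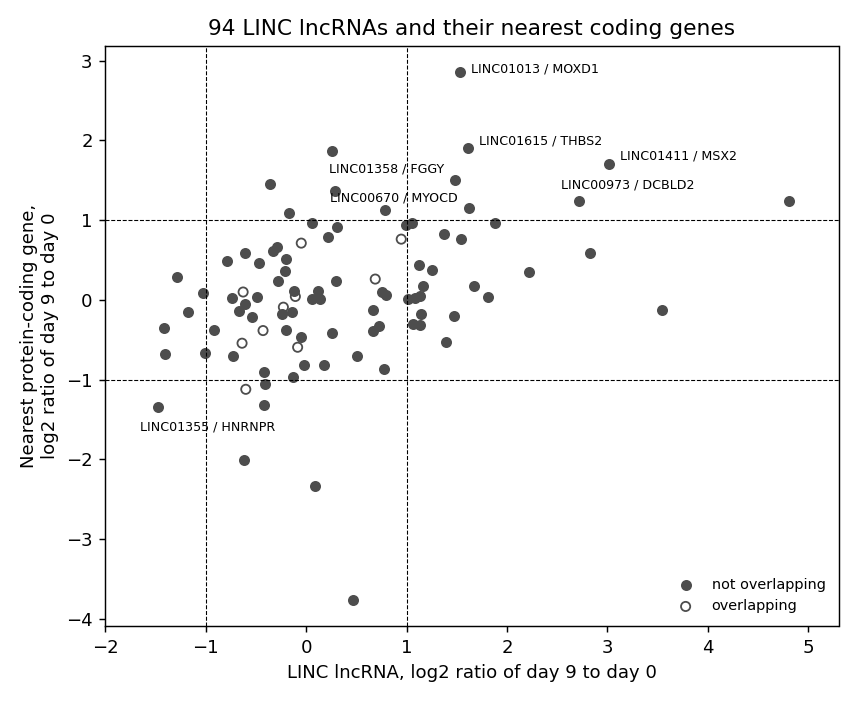
Log2 ratio of day 9 to day 0 of the nearest protein-coding gene against that of the LINC lncRNA for 94 pairs, with dashed lines at the 2-fold limit and open circles for pairs that overlap. The upper right field holds 7 pairs, among them LINC01411 with MSX2 and LINC01615 with THBS2, and the lower left field holds LINC01355 with HNRNPR.

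Not every abundant rising member had a neighbour that was higher too. LINC01021 lies nearest to CDH9, listed at 0 in all 4 libraries. BOD1L1, beside LINC01085, stood at 23.0, 27.6, 29.6 and 29.5 FPKM. TCP11L1, beside LINC00294, rose from 20.8 to 51.2, 43.5 and 46.3 FPKM, while LINC00294 itself stood at 8.27, 17.2, 17.5 and 14.9 FPKM and missed the limit with log2 ratios of 0.97, 0.998 and 0.78. LINC00472 passed it on day 3 alone, at 5.68, 15.7, 10.8 and 10.2 FPKM.

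Set beside other kinds of lncRNA symbol, LINC members had the largest share of higher symbols on day 9 of the 4 kinds compared, but not on day 3, when it was 15.5% for LINC and 19.2% for other names, and on day 6 the shares were 23.3% and 22.3%. On day 9 it was 25.9% for LINC, 12.5% for antisense names, 11.6% for clone names and 18.6% for other names. The shares of lower symbols were 6.90%, 7.81%, 5.63% and 11.5%. The share of symbols at 1 FPKM or more was 72.5% for LINC, 78.2%, 71.3% and 80.0% for the others, and the median highest level 3.03, 3.35, 2.55 and 3.39 FPKM in the same order. These are shares of listed symbols, not of all annotated ones, since every listed LINC symbol reached 0.5 FPKM in some library. With 1 library per day, these shares describe 4 libraries and the differences were not tested.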

How the data were processed

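The authors deposited FPKM per transcript for lncRNAs and mRNAs, 1 column per time point. The study's methods name Bowtie 2 and TopHat, while the submitters' processing notes list Bowtie 0.12.2 and mm8, a mouse build, for these human cells, so the build was taken as unknown and coordinates come only from RefSeq (GRCh38.p14). Ribosomal RNA was removed, and RNase R is described for the mRNA libraries, with no word on the lncRNA values. The program behind the FPKM is not given in the sources used here. The 9 deposited comparison tables, with the authors' fold changes, p-values and q-values, and the circRNA counts were not used.

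FPKM were summed per symbol and 1 was added before the log2 ratio to day 0. A minimum of 1 FPKM in any library and a limit of 2-fold were applied. The members and lists were chosen with earlier results of these data known. Members named are the 10 most abundant, the largest rises and falls on day 9 (up to 6 each, 1 fall qualified) where all 3 later days passed the limit, the 3 highest in mid-course, the 5 steadiest above 5 FPKM, those next to the minimum and those on a role list. Others are marked, and 1 neighbouring gene is not reported here. The promoter table lists more than 1 start site for 15 of the 88 members, and the first was used. The limit rule was tested on simulated data, with changes far past the limit, small noise and changed symbols averaging 5 FPKM or more. It says nothing of calls near the limit or on scarce members. Alternatives covered the amount added, the minimum, the limit, transcripts, 2 rescalings and members listed at 0. Python 3.11.15, numpy 2.4.6, pandas 2.3.3, scipy 1.17.1 and matplotlib 3.10.9 were used.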

Additional observations from a re-analysis of the deposited data

How the results depend on the processing

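No paired analysis was possible because the labels give a single library for a day, and leaving out a replicate was not possible for the same reason. FPKM give no read depth, so small counts of scarce members carry an unknown counting error. The cause of the shifts given here was not tested. Shares in brackets are those of all lncRNA symbols under the same setting. With 0.1 added in place of 1, higher members numbered 42 on day 3 (27.9%), 42 on day 6 (29.4%) and 31 on all 3 days (15.7%). Lower members numbered 12 on day 6 (11.5%) and 2 on all 3 days (4.75%), and the median on day 3 was 0.44. In that setting, 11 of the 35 pairs with a LINC member higher on day 9 were higher together, against 7 of 27 with 1 added. The share of all mRNA symbols higher with 0.1 added was not computed. Under a 4-fold limit, 5, 7 and 7 members were higher on days 3, 6 and 9 (2.33%, 2.67% and 2.59%) and 4 on all 3 days (1.10%), with 0 lower on any of them (0.255% to 1.02%). Each transcript was also taken on its own, which left 198 LINC transcripts at 1 FPKM or more, and the brackets then give shares of all such lncRNA transcripts. On day 3, 28 of the 198, or 14.1%, were higher (14.7%). Lower transcripts numbered 15, 14 and 17 on days 3, 6 and 9, or 7.58%, 7.07% and 8.59% (6.11%, 6.42% and 7.23%), and 5 on all 3 days, or 2.53% (2.32%). Rescaled to the lncRNA median, 7 were lower on day 3 (7.76%), 9 on day 6 (8.02%) and 2 on all 3 days (3.56%), and the median on day 3 was 0.069. A minimum of 2 FPKM left 81 members and a mean of at least 1 left 95. In each of these settings, 2 members were lower on day 3 (6.11% and 4.81%) and 0 on all 3 days (2.76% and 1.93%). Without members listed at 0, which left 105, lower members numbered 0 on day 3 (3.12%), 5 on day 9 (4.72%) and 0 on all 3 days (1.41%).

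The other 82 values of these results stayed within 1.5 times the main count, or, for medians, within the 95% order-statistic interval over members. That interval measures spread across members, not between cultures, and on day 6 it ran from -0.03 to 0.49. It thus held the day 6 median of 0.02 after rescaling to the lncRNA median, against 0.27 in the main setting. Some of the 82 were fixed in advance: with 1 added, a symbol under 1 FPKM in every library cannot pass the limit. Counts under a minimum of 0.5 FPKM, or under no minimum, therefore had to equal the main counts. Of 405 values of 45 named members over the 3 days, with 0.1 added or either rescaling, 379 kept their side of the limit, 19 came to pass it, 7 no longer did and 0 past the limit changed direction. With 0.1 added, LINC00294 reached 1.05 on day 3 and 1.07 on day 6. The only crossing on day 9 was that of LINC00863, at -0.93 when rescaled to the mRNA median.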
